A study of Bos taurus with 8 samples.

Results

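The 43 genes described here encode the proteins that fold secreted proteins in the endoplasmic reticulum (ER), those that act on collagen in particular, the sensors of ER stress and the genes switched on by the transcription factor ATF4. They were chosen by name, with earlier results of these data known. By function they were sorted into 14 general ER chaperones, 13 collagen-specific folding genes and 2 genes of ER-associated degradation (ERAD). The rest were 4 genes of the unfolded protein response (UPR) sensors and 10 genes of the ATF4 arm. All 43 occurred among the 18871 named genes of the count table, and all 43 reached the minimum of 20 counts in total that was required for a test, as did 18339 genes in all. Transcript levels were measured by RNA-seq in 8 preadipocyte clones, each described by the sources as grown from a single cell of the stromal vascular fraction, the mixed non-adipocyte cells of fat. There were 4 clones from intramuscular fat (IMF), the fat between muscle fibres that was cut out of the longissimus muscle, and 4 from subcutaneous fat (SF), all from adult male Angus-cross cattle (steers). The labels give no transgene or treatment that sets the groups apart. Sources differ on the number of steers and on whether the clones were induced to form adipocytes before sequencing: the study's methods describe collection at subconfluence in growth medium, and the deposited design text an adipogenic induction. Per the study's text, each clone came from a stromal vascular sample of its depot and was picked for fast growth, adipogenic capacity and fibroblast-like shape. The sources used here do not say which clones share a steer, and p-values measure the spread between these selected clones only.

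Proteins that enter the ER are bound by the chaperones BiP (HSPA5) and GRP94 (HSP90B1), by the lectins calreticulin and calnexin and by disulfide isomerases. Procollagen needs further help, because its chains are hydroxylated on proline and lysine before they wind into a triple helix, and HSP47 (SERPINH1) then holds the helix until it leaves the ER. When unfolded protein builds up, the sensors IRE1, PERK and ATF6 raise the output of chaperones and of ERAD, which returns failed proteins to the cytosol for destruction. PERK also favours translation of ATF4, which raises genes of amino acid synthesis and the stress genes CHOP and TRIB3. Fibroblast-like cells of fat and muscle secrete much collagen and rely on this machinery.

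Reads on named genes numbered from 19654917 to 29308882 per clone, so that 3 counts corresponded to between 0.0981 and 0.165 CPM, a floor that covers counting error only. CPM here is the count per 1000000 reads of the library size after TMM scaling. The clones labelled IMF preadipocytes also held transcripts of other cell types. All 7 skeletal muscle markers were higher in IMF, with a summed level of 212 to 261 RPKM (CPM per kilobase of gene length) against 0.193 to 10.1 RPKM in SF. All 6 endothelial markers were higher too, with 70.2 to 75.2 RPKM against 0.187 to 0.284 RPKM. MYOD1, MYOG, KDR and SELE had 0 counts in every SF clone. Each of the 4 IMF clones thus held both kinds of transcript at like levels. The counts alone do not show whether a library came from 1 cell or whether the clones of a group are independent, which the p-values take as given, and neither was tested. Of 5 stromal markers, PDGFRA was higher and THY1 lower in IMF, and the summed level was 383 to 428 RPKM in IMF and 265 to 521 RPKM in SF. Among 3 leukocyte markers CD3E was lower in IMF (4.47 to 10.8 RPKM summed, against 14.01 to 22.1 RPKM), and among 5 genes of cell division CCNB1 was higher (150 to 167 RPKM summed, against 92.6 to 156 RPKM). Among 3 adipocyte markers FABP4 was higher, with 172 to 351 counts in the IMF clones and 0 to 8 in the SF clones, while PLIN1 (log2 fold change -0.35, adjusted p = 0.119) and CIDEC (0.31, adjusted p = 0.899) did not pass. The summed level of the 3 was 13.9 to 19.2 RPKM in IMF and 1.06 to 2.39 RPKM in SF. The part of these cell type differences in the results below was not tested. In bulk RNA, fewer cells of a type and less RNA per cell cannot be told apart.

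Between the IMF and SF preadipocyte clones, most of the general ER chaperones that differed were higher in IMF, whereas the ERAD genes, the 3 stress sensors and most of the ATF4 arm genes that differed were lower. The collagen-specific genes went both ways and held both the widest rise and the widest fall. Of the 43 genes, 25 differed at an adjusted p under 0.05 (edgeR), 58.1% of them, against 25.8% of all genes tested and 35.3% of the 9339 genes with a mean of at least 10 CPM. Shares of all genes include 4202 tested IDs that are missing from RefSeq's bovine gene list, of which 7.33% were called and which varied far more between the IMF clones (median coefficient of variation 62.1%, against 7.99% for the 14137 IDs in it). In a fit on the RefSeq IDs alone 35.8% of genes were called, and 24 of the 43, without CREB3L1. Of the 25, 11 were higher in IMF, against 14.4% of all genes and 19.2% of those with a mean of at least 10 CPM. The other 14 were lower, against 11.4% and 16.1%. The differences were mostly small. Only P4HA3, P3H2 and TRIB3 (the last only just) also reached a log2 fold change of 1 in size, 3 of 43 genes, against 8.82% of all genes. In 23 of the 43 genes the IMF and SF clones did not overlap, 10 of them higher and 13 lower in IMF. Over all genes 32.1% did not overlap, as did 3901 of the 9339 genes with a mean of at least 10 CPM. The median log2 fold change (IMF over SF) was 0.07 over the 43 genes and -0.03 over all genes tested. When libraries were scaled by total counts alone, the median over all genes moved by 0.15 to 0.12. That scaling called 11 of the 43 genes higher and 7 lower, against 3356 and 1189 of all 18339 genes. In the main fit 2639 of all genes were called higher and 2085 lower.

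Per length, the machinery was abundant. Over the 8 clones, 29 of the 43 genes ranked at or above the 90th percentile of all genes tested by RPKM. SERPINH1 was the highest in both groups, followed in the IMF clones by P4HB (316 RPKM), CALR (311 RPKM) and HSPA5 (259 RPKM). In the SF clones HSPA5 (307 RPKM) and P4HB (305 RPKM) came next, and CALR followed at 230.1 RPKM. The lowest were ERN1 in IMF (1.67 RPKM) and P4HA3 in SF (0.634 RPKM).

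**Figure D1:**
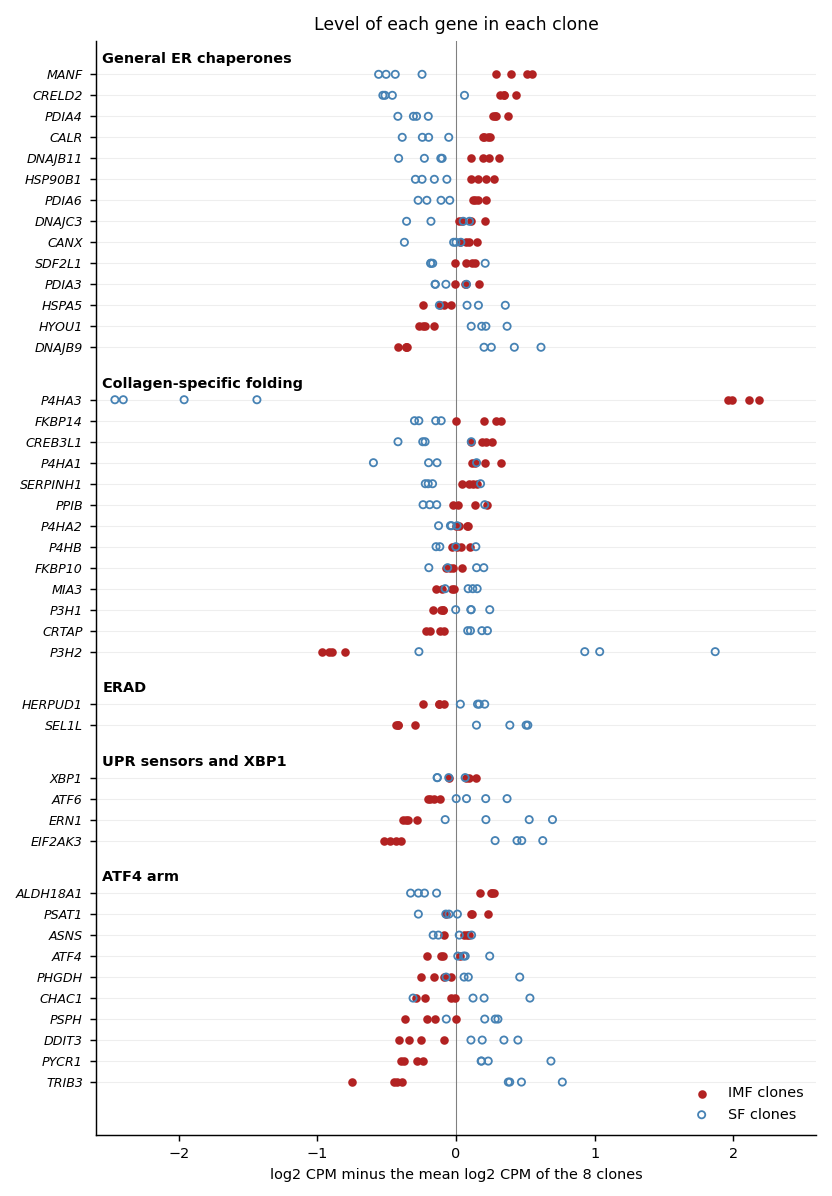
Levels of the 43 genes in each clone, as log2 CPM minus the mean of the 8 clones (x axis), grouped by function, with filled points for the 4 IMF clones and open points for the 4 SF clones. The 2 groups do not overlap in 23 of the 43 genes, and P4HA3 lies far outside the range of the rest.

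Among the general ER chaperones, 7 of 14 were higher in the IMF clones, 2 were lower and 5 did not pass the test (64.3% called, against 25.8% of all genes tested and 35.3% of those with a mean of at least 10 CPM), with a median log2 fold change of 0.25. The widest rise of the class was in MANF, a small ER protein that is secreted under stress. It stood at 98.3, 101, 90.5 and 84.05 CPM in IMF1 to IMF4 and 58.1, 46.8, 48.6 and 50.9 CPM in SF1 to SF4. Every IMF clone was above every SF clone, a 1.83-fold difference (log2 fold change 0.87, 95% interval 0.66 to 1.09, adjusted p = 0.000394). CRELD2, another ER stress-inducible protein with disulfide isomerase activity, was at 35.4, 38.4, 36.1 and 36.3 CPM in IMF1 to IMF4 and 29.7, 19.97, 19.8 and 20.7 CPM in SF1 to SF4. SF1 was well above the other SF clones and still below all IMF clones, and the mean difference was 1.62-fold (adjusted p = 0.00656). The disulfide isomerase PDIA4, which makes and reshuffles disulfide bonds, measured 276, 293, 276 and 272 CPM in IMF1 to IMF4 and 183, 186, 169 and 197 CPM in SF1 to SF4. The clones of each group lay close together and apart from the other group (1.52-fold, adjusted p = 0.000849). Its relative PDIA6 showed a smaller rise of 1.24-fold, from 178, 192, 171 and 200.02 CPM in SF1 to SF4 to 231, 239.7, 224 and 227 CPM in IMF1 to IMF4 (adjusted p = 0.0188). This call was lost without IMF1, IMF2 or IMF3 (adjusted p = 0.0516, 0.0665 and 0.0514). It was also lost with the clone number as a block in the fit (adjusted p = 0.0516).

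CALR, HSP90B1 and DNAJB11 were also higher in IMF. Calreticulin (CALR), which holds glycoproteins during folding and stores calcium, measured 589, 605, 601 and 586 CPM in IMF1 to IMF4 and 446, 493, 391 and 432 CPM in SF1 to SF4. The IMF clones spanned less than the SF clones and lay above all of them (1.35-fold, adjusted p = 0.00998). HSP90B1 (GRP94) was at 622, 674, 649 and 603 CPM in IMF1 to IMF4 and 501, 471, 456 and 533 CPM in SF1 to SF4. All IMF clones were higher (1.30-fold, adjusted p = 0.0153), but the call was lost without IMF2 or IMF3 (adjusted p = 0.0541 and 0.0555). It was also lost with the clone number as a block (adjusted p = 0.0615). DNAJB11, a co-chaperone that feeds clients to BiP, was at 54.6, 52.98, 57.4 and 50.1 CPM in IMF1 to IMF4 and 42.96, 34.8, 39.6 and 43.2 CPM in SF1 to SF4. It was 1.34-fold higher in IMF with no overlap (adjusted p = 0.00861).

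The genes around BiP did not move together. HSPA5 (BiP), the central ER chaperone and a usual marker of the UPR, measured 666, 707, 680.1 and 612 CPM in IMF1 to IMF4 and 925, 764, 809 and 666 CPM in SF1 to SF4. SF1 was the highest and IMF4 the lowest, and SF4 lay within the IMF range. The difference did not pass the test (log2 fold change -0.25, 95% interval -0.52 to 0.02, adjusted p = 0.162). HYOU1 (GRP170), which releases nucleotide from BiP, was lower in IMF, at 133, 143, 137 and 135 CPM in IMF1 to IMF4 and 206, 172, 185 and 181 CPM in SF1 to SF4. The groups did not overlap (1.36-fold lower, adjusted p = 0.00422), although the call was lost with scaling by total counts alone (adjusted p = 0.0613). DNAJB9 (ERdj4), a BiP co-chaperone induced by the IRE1 branch, was at 16.9, 17.04, 16.9 and 16.2 CPM in IMF1 to IMF4 and 25.00, 25.9, 33.2 and 29.1 CPM in SF1 to SF4. The 4 IMF clones were nearly level, all below the SF clones, and the gene was 1.69-fold lower in IMF (adjusted p = 0.000944). Given as a description of these clones, the RPKM ratio of HSPA5 to HSP90B1 was 1.13 ± 0.0252 in the IMF clones and 1.76 ± 0.289 in the SF clones (SD, n = 4 each), and it was higher in each SF clone than in any IMF clone. CANX (calnexin), PDIA3, DNAJC3 and SDF2L1 had log2 fold changes between 0.15 and 0.18 and did not pass the test. SDF2L1, a partner of DNAJB11, was at 25.00, 19.1, 19.03 and 19.2 CPM in SF1 to SF4, and without SF1 it was called higher in IMF (log2 fold change 0.26, adjusted p = 0.018).

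**Figure D2:**
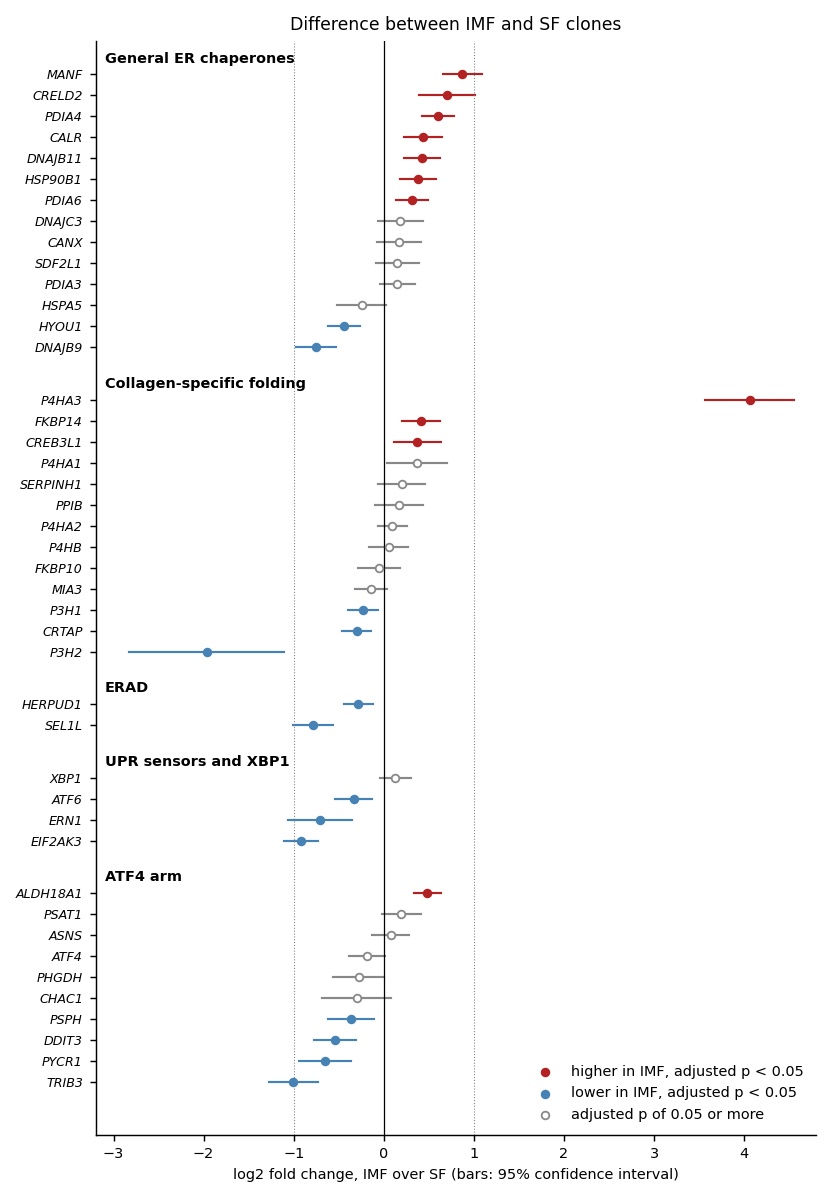
The log2 fold change of each of the 43 genes, IMF over SF (x axis), with its 95% confidence interval from edgeR, grouped by function. Filled points mark the 11 genes called higher and the 14 called lower in IMF, open points the 18 that did not pass, and dotted lines a log2 fold change of 1 in either direction, which P4HA3, P3H2 and TRIB3 exceed.

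Of the 13 collagen-specific folding genes, 3 were higher in the IMF clones, 3 were lower and 7 did not pass the test (46.2% called, against 25.8% of all genes and 35.3% of those with a mean of at least 10 CPM), with a median log2 fold change of 0.09. With scaling by total counts alone, 3 were called higher and 1 lower. Without IMF1, 3 of the 13 were called in place of 6, and 3731 of all genes in place of 4724. Without SF1, 7 of the 13 were called, 5 higher and 2 lower, and 5112 of all genes. SERPINH1 (HSP47), the collagen chaperone, was the highest of the 43 genes per length, with a mean of 555 RPKM in IMF and 484 RPKM in SF. It measured 1205, 1252, 1229 and 1165 CPM in IMF1 to IMF4 and 1276, 1004, 968 and 982 CPM in SF1 to SF4. SF1 was the highest of all 8 clones and the other 3 SF clones were below every IMF clone. The difference did not pass the test (log2 fold change 0.20, 95% interval -0.07 to 0.46, adjusted p = 0.25), whereas without SF1 it did (log2 fold change 0.30, adjusted p = 0.0202). PPIB (cyclophilin B), a prolyl isomerase that joins the prolyl 3-hydroxylase complex, behaved alike, at 179, 189.8, 164 and 160.2 CPM in IMF1 to IMF4 and 188, 148, 138 and 143 CPM in SF1 to SF4. It overlapped between the groups because of SF1 (log2 fold change 0.17, adjusted p = 0.324, and 0.0355 without SF1).

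Proline 4-hydroxylation stabilises the collagen helix, and the enzyme is built from 1 type of alpha subunit (P4HA1, P4HA2 or P4HA3) and the disulfide isomerase P4HB. P4HA3, the third alpha subunit, lies on chromosome 15 (bases 53609484 to 53681795 of ARS-UCD2.0) and showed the widest difference of the 43 genes. It was at 34.5, 32.8, 30.2 and 29.6 CPM in IMF1 to IMF4 and 1.44, 2.80, 1.95 and 1.38 CPM in SF1 to SF4. The level in IMF was 16.7-fold that in SF (log2 fold change 4.06, SE 0.22, 95% interval 3.57 to 4.56, adjusted p = 9.65e-06), and the SF levels were low but above the floor in all 4 clones. PPME1, which the annotation places across part of the P4HA3 locus, was also higher in IMF, at a mean of 37.0 CPM against 26.6 CPM (log2 fold change 0.48, adjusted p = 0.00249), and reads shared between the genes cannot be told apart here. The loci of PDIA3, PDIA4, P4HA2, P3H2, PPIB, MIA3 and DDIT3 also overlap another listed gene, none of which passed the test. P4HA3 was the only one of the 43 genes that passed when edgeR's glmTreat asked for a log2 difference beyond 1 (adjusted p = 2.12e-05).

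The other subunits did not pass the test. P4HA2 was at 293, 293, 281 and 277 CPM in IMF1 to IMF4 and 269, 278, 253 and 270.3 CPM in SF1 to SF4 (log2 fold change 0.09, 95% interval -0.07 to 0.26, adjusted p = 0.376). P4HA1 was at 142, 155, 133 and 135 CPM in IMF1 to IMF4 and 81.5, 112, 137 and 107 CPM in SF1 to SF4. SF1 was the lowest and SF3 lay within the IMF range (log2 fold change 0.37, adjusted p = 0.102, and 0.028 without SF3). P4HB measured 736, 770.1, 722 and 706 CPM in IMF1 to IMF4 and 650.1, 718, 793 and 663 CPM in SF1 to SF4 (log2 fold change 0.06, adjusted p = 0.72). Per length, P4HA3 made up 7.08% ± 0.306 of the summed alpha subunit RPKM in the IMF clones and 0.506% ± 0.159 in the SF clones (SD, n = 4 each). P4HA2 held the largest share in both, 63.9% ± 0.921 in IMF and 72.5% ± 4.64 in SF.

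**Figure D3:**
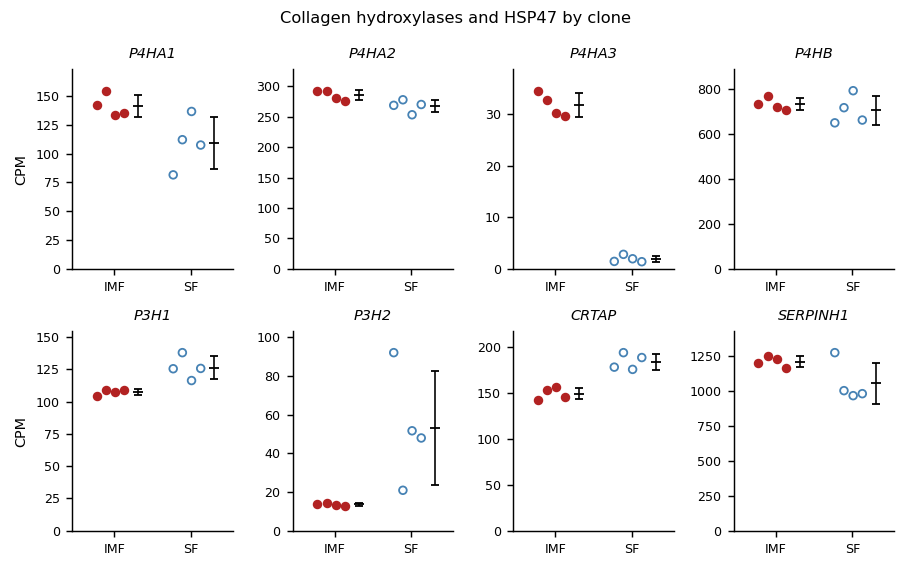
CPM in each clone (points, IMF filled, SF open) with the group mean and SD beside them for 8 collagen-specific genes, each on its own axis from 0. P4HA3 is at 29.6 to 34.5 CPM in the IMF clones and 1.38 to 2.80 CPM in the SF clones, P3H2 is low and even in IMF and spread from 20.9 to 92.0 CPM in SF, and SF1 is the highest clone for SERPINH1.

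P3H2, P3H1 and CRTAP, which act in collagen proline 3-hydroxylation, were lower in IMF, but with scaling by total counts alone the calls of P3H1 (adjusted p = 0.584) and CRTAP (0.304) were lost. P3H2, on chromosome 1 (bases 77130195 to 77309576), encodes an enzyme known for its action on basement membrane collagen IV. It measured 13.6, 14.5, 13.4 and 12.9 CPM in IMF1 to IMF4 and 92.03, 20.9, 51.7 and 47.9 CPM in SF1 to SF4. The IMF clones were nearly level, while the SF clones spread widely from SF2 to SF1, all above IMF (3.91-fold lower in IMF, log2 fold change -1.97, 95% interval -2.83 to -1.11, adjusted p = 0.0062). Without SF1 the log2 fold change was -1.57, and without SF2 it was -2.23. P3H1 and CRTAP form a complex that 3-hydroxylates collagen I. CRTAP was at 143, 153, 156 and 146 CPM in IMF1 to IMF4 and 178, 194, 176 and 189 CPM in SF1 to SF4, with no overlap (1.23-fold lower in IMF, adjusted p = 0.0157, and 0.0544 without IMF1). P3H1 was at 104, 109, 108 and 109 CPM in IMF1 to IMF4 and 125, 138, 116 and 126 CPM in SF1 to SF4. The groups did not overlap, but the difference was small (1.17-fold, adjusted p = 0.0473), and the call was lost when any clone but SF3 was left out (adjusted p of 0.0501 to 0.121). P3H2 made up 8.97% ± 0.423 of the summed RPKM of P3H1 and P3H2 in IMF and 23.9% ± 10.6 in SF, where SF2 had 10.6% and SF1 had 36.4%.

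FKBP14, a prolyl isomerase that binds folding collagen, was 1.33-fold higher in IMF, at 23.8, 25.9, 25.2 and 20.7 CPM in IMF1 to IMF4 and 19.2, 17.2, 16.8 and 18.7 CPM in SF1 to SF4 (adjusted p = 0.0121). The lowest IMF clone, IMF4, was above the highest SF clone, SF1. CREB3L1 (OASIS), a membrane-bound transcription factor that drives collagen secretion genes, was at 199.7, 216, 223 and 211 CPM in IMF1 to IMF4 and 200.4, 139, 157 and 159 CPM in SF1 to SF4. SF1 lay within the IMF range, and the call was at the threshold (1.29-fold higher, adjusted p = 0.0456). It held without SF1 (adjusted p = 0.00376) and was lost when any other clone was left out (0.0698 to 0.149). It was also lost with the clone number as a block (adjusted p = 0.0891). FKBP10, another collagen prolyl isomerase, and MIA3 (TANGO1), which loads collagen into transport carriers, had log2 fold changes of -0.06 and -0.14 and did not pass, and both signs flipped with scaling by total counts alone (0.10 and 0.0032). That of FKBP10 also flipped without SF1 (0.0054).

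The ERAD genes were lower in IMF, both of 2, against 11.4% of all genes and 16.1% of those with a mean of at least 10 CPM. SEL1L, the adaptor of the HRD1 ubiquitin ligase that marks failed ER proteins, measured 143, 141, 155 and 143 CPM in IMF1 to IMF4 and 211, 273, 271 and 249.5 CPM in SF1 to SF4. The groups were far apart relative to their spread (1.73-fold lower, log2 fold change -0.79, 95% interval -1.01 to -0.56, adjusted p = 0.000789). HERPUD1, which gathers the same complex and is induced by ER stress, was at 85.3, 83.5, 83.5 and 77.05 CPM in IMF1 to IMF4 and 102, 105, 101 and 92.7 CPM in SF1 to SF4. It was 1.22-fold lower with no overlap (adjusted p = 0.0187), and the call was lost without IMF4 (adjusted p = 0.0546) or with scaling by total counts alone (adjusted p = 0.411).

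Of the 4 genes of the UPR sensors, the 3 sensors themselves were lower in the IMF clones with no overlap between the groups, and XBP1 did not pass. Over all genes 11.4% were called lower, and 16.1% of those with a mean of at least 10 CPM. Lower without overlap were 2582 of all 18339 genes and 1738 of the 9339 with a mean of at least 10 CPM. EIF2AK3 (PERK), the kinase that slows translation and favours ATF4, measured 23.5, 25.02, 24.2 and 25.6 CPM in IMF1 to IMF4 and 45.7, 40.99, 46.8 and 52.02 CPM in SF1 to SF4. The IMF clones were at about the same level, and the SF clones were 1.89-fold higher on average (log2 fold change -0.92, 95% interval -1.10 to -0.73, adjusted p = 0.000157). ERN1 (IRE1), the kinase and nuclease that splices XBP1 mRNA, was the lowest of the 43 genes per length in IMF, with 1.67 RPKM. It was at 14.3, 15.3, 14.6 and 14.5 CPM in IMF1 to IMF4 and 30.1, 17.6, 26.8 and 21.6 CPM in SF1 to SF4. SF2 was only just above the IMF clones, and the mean was 1.64-fold lower in IMF (adjusted p = 0.0117). ATF6, which is cut in the Golgi to give a transcription factor for chaperone genes, was at 82.6, 84.3, 86.8 and 81.8 CPM in IMF1 to IMF4 and 94.1, 99.1, 121 and 109 CPM in SF1 to SF4. It was 1.26-fold lower in IMF (adjusted p = 0.0257). The call was lost without IMF1, IMF4 or SF4 (adjusted p = 0.0668, 0.0665 and 0.0594). It was also lost with scaling by total counts alone (0.263) and with the clone number as a block (0.0501). XBP1, the target of ERN1, was at 95.9, 101, 97.2 and 87.95 CPM in IMF1 to IMF4 and 95.5, 83.1, 87.9 and 82.98 CPM in SF1 to SF4. SF1 lay within the IMF range and the difference did not pass (log2 fold change 0.13, 95% interval -0.05 to 0.30, adjusted p = 0.266). Counts per gene do not tell the spliced XBP1 form from the unspliced one, nor do they measure phosphorylation or cleavage of the sensors.

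In the ATF4 arm, 4 of 10 genes were lower in IMF, 1 was higher and 5 did not pass (50% called, against 25.8% of all genes and 35.3% of those with a mean of at least 10 CPM), with a median log2 fold change of -0.29. The 4 lower genes stand against 11.4% of all genes called lower and 16.1% of those with a mean of at least 10 CPM. With scaling by total counts alone, 2 were called lower and 1 higher. ATF4 itself was at 239, 261, 237 and 220.1 CPM in IMF1 to IMF4 and 302, 265, 257 and 267 CPM in SF1 to SF4. IMF1, IMF3 and IMF4 were below every SF clone, IMF2 lay within the SF range, and the difference did not pass (log2 fold change -0.19, 95% interval -0.39 to 0.01, adjusted p = 0.154). ATF4 is regulated largely in translation, which these counts do not measure. TRIB3, a pseudokinase induced by ATF4 and CHOP that lies on chromosome 13 (bases 60632819 to 60645777), showed the widest difference of the arm, at 37.5, 38.3, 36.9 and 29.9 CPM in IMF1 to IMF4 and 85.5, 65.3, 65.7 and 69.7 CPM in SF1 to SF4. IMF4 was the lowest and SF1 the highest, and the level was 2.01-fold lower in IMF (log2 fold change -1.004, 95% interval -1.27 to -0.74, adjusted p = 0.000573). DDIT3 (CHOP), the stress transcription factor, was at 26.9, 30.2, 25.4 and 24.1 CPM in IMF1 to IMF4 and 40.8, 43.8, 36.6 and 34.6 CPM in SF1 to SF4. The groups did not overlap (1.46-fold lower, adjusted p = 0.00552), and the call was lost with scaling by total counts alone (adjusted p = 0.0534). CHAC1, which breaks down glutathione, ranged from 12.6 to 15.3 CPM in IMF and from 12.4 to 22.2 CPM in SF. It did not pass (adjusted p = 0.231), whereas without SF2, its lowest SF clone, it did (adjusted p = 0.0489).

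**Figure D4:**
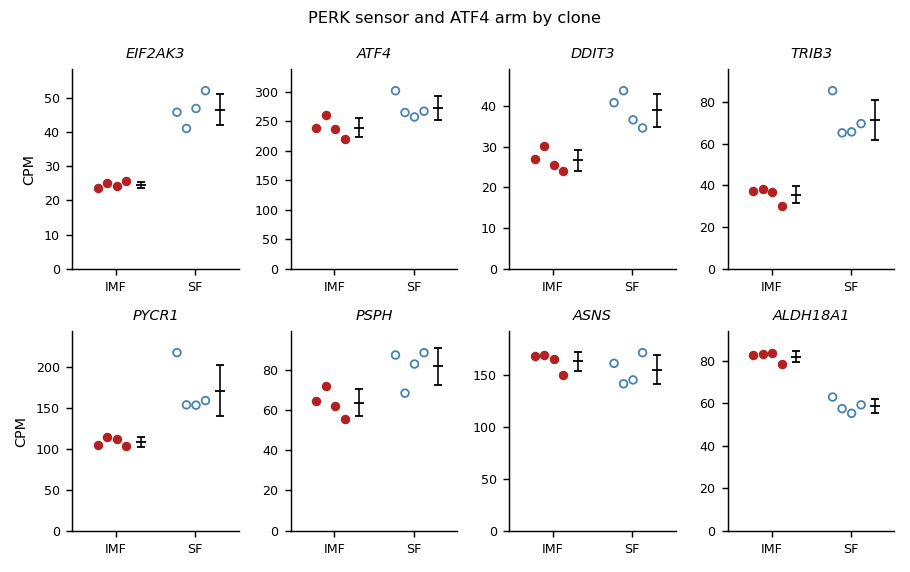
CPM in each clone (points, IMF filled, SF open) with the group mean and SD beside them for the PERK sensor (EIF2AK3) and 7 genes of the ATF4 arm, each on its own axis from 0. EIF2AK3, DDIT3, TRIB3 and PYCR1 are lower in each IMF clone than in any SF clone, ALDH18A1 is higher, and ATF4, PSPH and ASNS overlap.

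The amino acid genes of the arm did not move together. Proline, which collagen holds in large amounts, is made by ALDH18A1, which acts first, and PYCR1, which acts last. ALDH18A1 was higher in IMF, at 82.8, 83.1, 83.9 and 78.4 CPM in IMF1 to IMF4 and 62.98, 57.5, 55.3 and 59.3 CPM in SF1 to SF4, with no overlap (1.396-fold, adjusted p = 0.00118). PYCR1 was lower, at 104, 115, 112 and 103 CPM in IMF1 to IMF4 and 217, 154, 153 and 159 CPM in SF1 to SF4. SF1 stood above the other SF clones, which were all above IMF (1.58-fold lower, adjusted p = 0.00614). Of the serine synthesis genes, PSPH, the last step, was at 64.7, 71.8, 62.02 and 55.5 CPM in IMF1 to IMF4 and 87.3, 68.3, 82.8 and 88.4 CPM in SF1 to SF4. SF2 lay within the IMF range (1.29-fold lower in IMF, adjusted p = 0.042). The call was lost when any clone but IMF2 or SF2 was left out (adjusted p of 0.0526 to 0.103). It was also lost with scaling by total counts alone (adjusted p = 0.217) and with the clone number as a block (0.114). PHGDH, the first step and the highest gene of the arm per length (177 RPKM in IMF and 215 RPKM in SF), was at 335, 348, 319 and 299 CPM in IMF1 to IMF4 and 490.2, 379, 371 and 339 CPM in SF1 to SF4. IMF2 lay above SF4, and the difference did not pass (log2 fold change -0.28, 95% interval -0.57 to 0.01, adjusted p = 0.14). PSAT1, the step between them, and ASNS, which makes asparagine, had log2 fold changes of 0.19 and 0.07 and did not pass (adjusted p = 0.176 and 0.584).

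Set side by side, the median log2 fold change was 0.25 for the 14 general ER chaperones, 0.09 for the 13 collagen-specific genes and -0.29 for the 10 ATF4 arm genes, against -0.03 for all genes tested. With scaling by total counts alone the medians were 0.40, 0.24 and -0.14, against 0.12 for all genes. A change of scaling moves all genes by nearly the same amount, so it cannot test the order of the classes. As summed RPKM, the general chaperones reached 1521 ± 59.4 in the IMF clones and 1290.1 ± 43.98 in the SF clones (SD, n = 4 each), with no overlap. The collagen-specific genes summed to 1549 ± 53.4 and 1427 ± 97.5 RPKM and overlapped, because SF1 had 1572 RPKM. The ATF4 arm summed to 648 ± 43.6 and 752 ± 66.98 RPKM, with no overlap. SERPINH1 alone made up 35.8% ± 0.420 of the collagen-specific sum in IMF and 33.8% ± 2.28 in SF. These sums are a description and not a test.

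The collagen chains, the clients of this machinery, differed by more than most of the machinery. Of 12 chains, 7 were lower in IMF and 1 higher (66.7% called, against 25.8% of all genes tested and 35.3% of those with a mean of at least 10 CPM), with a median log2 fold change of -0.93. COL1A1 measured 12372 ± 392.2 CPM in IMF and 30089.7 ± 1069.9 CPM in SF (mean and SD of 4 clones), or -1.28 on the log2 scale (adjusted p = 0.000308). COL1A2 was also lower (log2 fold change -0.80, adjusted p = 0.00432), as was COL6A1 (-1.52, adjusted p = 6.9e-05). COL5A3 was the exception, with means of 22.7 CPM in the IMF group and 0.269 CPM (SD 0.164) in the SF group (log2 fold change 6.42, adjusted p = 8.2e-06). The SF clones had 9, 4, 2 and 6 counts of it, so SF3 lay under the floor of 3 counts and the size of the difference is uncertain. The summed level of the 12 chains was 7376 to 7682 RPKM in the IMF clones and 13468 to 16212 RPKM in the SF clones. Relative to the 13 collagen-specific folding genes this made a ratio of 4.83 ± 0.187 in IMF and 9.95 ± 0.254 in SF. The collagen I chains came to 7.77 ± 0.253 times the RPKM of SERPINH1 in IMF and 18.6 ± 1.31 times in SF. Both ratios were higher in every SF clone than in any IMF clone. SF1 was the SF clone with the most collagen chain RPKM. It was also the highest SF clone for SERPINH1, but the lowest for P4HB, P4HA1 and MIA3.

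**Figure D5:**
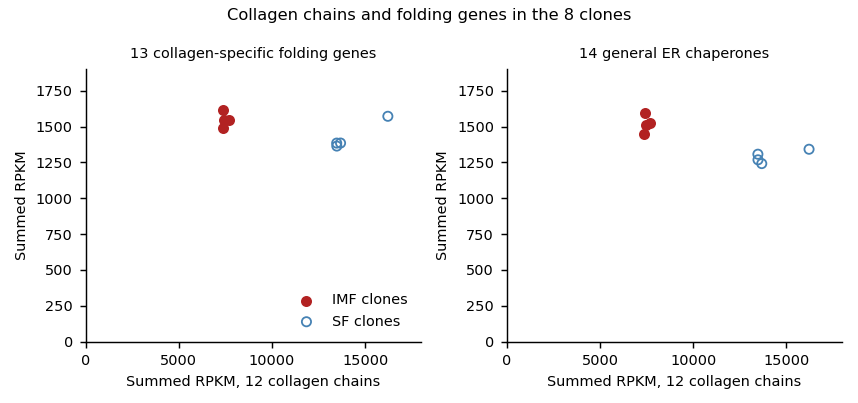
Summed RPKM of the 12 collagen chains (x axis) against that of the 13 collagen-specific folding genes (left) and of the 14 general ER chaperones (right) in each clone, with filled points for IMF and open points for SF. The IMF clones have 7376 to 7682 RPKM of collagen chains and the SF clones 13468 to 16212 RPKM, while the folding genes lie between 1364 and 1618 RPKM in all 8 clones.

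The median coefficient of variation of the 43 genes was 4.52% within the IMF group and 10.6% within the SF group, against 10.5% and 20.9% over all genes tested, 7.99% and 16.7% over those with an ID in RefSeq and 6.15% and 12.9% over the genes with a mean of at least 10 CPM. Among the IMF clones, IMF2 had the highest level in 32 of the 43 genes (74.4%, against 35.4% of all genes and 45.8% of genes with a mean of at least 10 CPM) and IMF4 the lowest in 32 (74.4%, against 33.3% and 42.8%). IMF2 was also the most deeply sequenced clone, with 29308882 reads on named genes, and IMF4 had 20693899. Among the SF clones, SF1 had the highest level in 19 of the 43 genes (44.2%, against 30.1% and 27.2%), among them HSPA5, HYOU1, SERPINH1, PPIB, P3H2, ATF4, TRIB3 and PYCR1. SF3 had the lowest level in 17 (39.5%, against 22% and 18.7%). SF1 was at the same time the lowest SF clone for 9 genes (20.9%, against 32.4% and 37.9%), among them CANX, DNAJC3, P4HA1, SEL1L and ATF6. Whether depth or scaling had a part in these orders was not tested.

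Other genes of the same pathways were read from lists of related genes, and their shares of called genes stand against 25.8% of all genes tested, 35.3% of those with a mean of at least 10 CPM and 35.8% of RefSeq genes fitted alone. Of 18 further genes of collagen modification and export, 4 were lower in IMF and 1 higher (27.8% called, no more than that background of well expressed genes), with a median log2 fold change of -0.17. The lysyl hydroxylases PLOD1 (-0.83, adjusted p = 0.000271) and PLOD3 (-0.67, adjusted p = 0.000944), which prepare collagen for crosslinking and glycosylation, were lower, as was SEC24D, a coat protein of collagen carriers (-0.34, adjusted p = 0.0189). The call of SEC24D was lost with scaling by total counts alone (adjusted p = 0.22) and without IMF1 or IMF4 (0.058 and 0.0522). FKBP7, a relative of FKBP14, was higher (0.75, adjusted p = 0.000752). Of 12 further ER folding genes, 3 were higher and 2 lower (41.7% called), with a median of 0.01. The disulfide isomerase PDIA5 (0.93, adjusted p = 0.000385), the peroxiredoxin PRDX4 (0.33, adjusted p = 0.0188) and ERP29, a chaperone of the disulfide isomerase family without redox activity (0.64, adjusted p = 0.000306), were higher. The call of PRDX4 was lost without IMF1 or IMF2 (adjusted p = 0.0541 and 0.0641). SIL1, another nucleotide exchange factor of BiP beside HYOU1, and UGGT2, which checks glycoprotein folding, were lower (-0.33, adjusted p = 0.0196, and -0.76, adjusted p = 0.00733), and the call of SIL1 was lost with scaling by total counts alone (adjusted p = 0.257) or without IMF4 (0.0577).

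Of 16 further ERAD and UPR genes, 5 were lower in IMF and 1 higher (37.5% called, near the background of well expressed genes), with a median of -0.14. OS9, a lectin of the SEL1L complex (-0.65, adjusted p = 0.000719), DERL1, a channel component (-0.49, adjusted p = 0.00254), and CREB3, a membrane-bound transcription factor (-0.88, adjusted p = 0.00507), were lower. EDEM2, which trims mannose from glycoproteins bound for ERAD, was higher (0.43, adjusted p = 0.00557). Of 31 further ATF4 targets, 12 were lower and 1 higher (41.9% called), with a median of -0.31. They included ATF5 (-0.80, adjusted p = 0.000645), the amino acid transporter chain SLC3A2 (-0.48, adjusted p = 0.0014) and the glycyl-tRNA synthetase GARS1, listed as GARS (-0.57, adjusted p = 0.00103). GPT2, a mitochondrial transaminase, was higher (0.47, adjusted p = 0.0177), a call lost without IMF2 or IMF3 (adjusted p = 0.0536 and 0.0564). Outside the ER, 6 of 13 cytosolic and mitochondrial heat shock genes were higher in IMF and 1 was lower (53.8% called), with a median of 0.30. HSPA8 (0.41, adjusted p = 0.0303), HSPD1 (0.45, adjusted p = 0.0156) and its partner HSPE1 (0.98, adjusted p = 0.00412) were higher, and the small heat shock protein HSPB1 was lower (-0.93, adjusted p = 0.00154). The call of HSPA8 was lost without any 1 of the 4 IMF clones or SF2 (adjusted p of 0.0511 to 0.0844).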

How the data were processed

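Poly(A) RNA of 4 IMF and 4 SF preadipocyte clones was sequenced in paired-end reads. The authors used Trimmomatic 0.39 for trimming, an aligner (HISAT2 in the study's methods, STAR 2.7.11a in the submitters' processing notes) with the ARS-UCD2.0 genome, and featureCounts 2.0.2 for counting. The deposited values are raw counts of each gene in each clone, with the gene length in bases. The study's methods name TPM, but the deposited columns are whole-number counts with unequal totals. Sources differ on whether the libraries were stranded. The authors' deposited group means and DESeq2 base mean (a signal), log2 fold change, test statistic (a score) and p-value columns were not used. A row without a gene name, with 0.0148% to 0.0209% of the reads of a clone, was left out.

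Groups were taken from the sample labels. The test was that of edgeR 4.0.16 under R 4.3.3 (TMM, quasi-likelihood, two-sided) in the 18339 genes with at least 20 counts in total, with Benjamini-Hochberg adjustment over all of them and no covariate. RPKM is TMM-scaled CPM per kilobase of the deposited length. The script was tested on simulated counts. The 43 members and the lists of related genes and markers were chosen with earlier results of these data known. All 25 called members are named in full, with the highest member of each class, and from each related list at most 3 called genes per direction, those with the highest mean TPM, computed here from the counts and gene lengths and used for this choice alone. Libraries were compared pairwise within a group, and none was a repeat deposit of another, as each pair differed by more than counting noise (chi-square per degree of freedom of at least 34.4 over RefSeq IDs). This does not bear on whether the clones are independent. AARS1, WARS1, NARS1, CARS1 and HSPA1A, which are listed under a current and an older symbol, and P3H3, ADIPOQ, LEP and CSF1R were not analysed here. Of 4979 gene IDs that begin with LOC, 4149 are missing from RefSeq's gene list for ARS-UCD2.0, and they took 6.15% to 9.34% of the counts of a clone. Why these IDs are in the table is not given in the sources used here. All 43 members occur in it by symbol. Alternatives were DESeq2 1.42.0, limma-voom (limma 3.58.1), RLE, upper quartile and total count scaling, other filters, robust dispersion, glmTreat at a log2 fold change of 1, the clone number as a block, and each clone left out. Restriction to RefSeq gene IDs was added after the data were seen.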

Additional observations from a re-analysis of the deposited data

Results flagged for a closer look

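In each group of 4 clones, the gap between the highest or lowest clone and its nearest neighbour was set against the range of the group (Dixon's ratio, read at its 95% critical value). Of the 86 groups formed by the 43 genes, 8 held a clone past that value. A rate of about 1 in 20 holds for independent, normally distributed values only. The 43 genes were read in the same libraries, and the share over all genes is not given here. SF1 was the clone that stood apart in 5 of the 8 groups. It was the highest SF clone for SDF2L1 (ratio 0.967, 25.0 CPM against 19.2 CPM in the next clone), PYCR1 (0.913, 217 against 159 CPM), CRELD2 (0.904, 29.7 against 20.7 CPM) and SERPINH1 (0.884, 1276 against 1004 CPM), and the lowest for CANX (0.856, 302 against 386 CPM). IMF4 was the lowest IMF clone for DNAJB9 (0.84, 16.2 against 16.9 CPM) and TRIB3 (0.83, 29.9 against 36.9 CPM), and IMF3 was the highest for SEL1L (0.895, 155 against 143 CPM). The calls of PYCR1, CRELD2, DNAJB9, TRIB3 and SEL1L held without the clone that stood apart, while SDF2L1 and SERPINH1 passed the test only without SF1 and CANX did not pass with or without it.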

How the results depend on the processing

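Over 19 alternatives, the 25 called genes never changed sign, and 15 of them kept an adjusted p under 0.05 in each alternative except glmTreat, which asks for a log2 difference beyond 1. That test called 631 genes of all tested, 1 of the 43 genes (P4HA3), 1 collagen-specific gene, 0 general chaperones and 0 ATF4 arm genes, and the last 2 classes also had 0 genes at an unadjusted p under 0.05 in it, against 9 and 6 at an adjusted p under 0.05 with DESeq2. Scaling by total counts alone left 3 called ATF4 arm genes, turned the sign of FKBP10 to 0.10 and that of MIA3 to 0.0032, and raised the share of called genes that were higher in IMF from 55.9% to 73.8% over all genes. FKBP10 was also turned without SF1, and lay between -0.16 and 0.0054 when clones were left out. Leaving out each clone in turn gave 19 to 26 called genes of the 43, 3 to 7 collagen-specific genes, 7 to 10 general chaperones, 4 to 6 ATF4 arm genes and 3347 to 5112 genes of all tested. The call of CREB3L1 was lost in 14 alternatives, of P3H1 in 10 and of PSPH in 9. ATF4 was called lower with DESeq2 (adjusted p = 0.0462). Same-numbered IMF and SF clones deviated from their group means with a mean correlation of 0.055 across genes (-0.0093 to 0.139). For the 12 other pairs it was -0.0184 (-0.1055 to 0.1088). These ranges overlap, so the correlations cannot decide whether the clone numbers pair the samples. Nothing in the sources says that a number marks a shared animal. With the replicate block by clone number, 18 of the 43 genes were called, 3 of them collagen-specific genes, and 3752 of all genes tested, the 7 without a call being HSP90B1, PDIA6, P3H1, CRTAP, CREB3L1, ATF6 and PSPH (adjusted p of 0.0501 to 0.114). The causes of these changes were not tested. The lowest level of the 43 genes, 1.38 CPM for P4HA3 in SF4, was above the floor of 0.165 CPM, and no depth-matched comparison was made.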
